A study of Mus musculus with 6 samples.

Results

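The transcripts described here are 10 genes that make, load or control MHC class I molecules: the class I heavy chains H2-K1 and H2-D1, their light chain B2m, the peptide transporter subunits Tap1 and Tap2, the loading bridge Tapbp, the immunoproteasome subunits Psmb8, Psmb9 and Psmb10, and the transactivator Nlrc5. They were taken by name from tables of 36333 genes, and all 10 were found and reached the level required for testing, a mean of 1 TPM (a share of the transcripts of a library, corrected for gene length). The libraries were made from macrophages grown from C57BL/6 mouse bone marrow for 7 days with 10 ng/mL of the growth factor M-CSF, then seeded at 250000 per well. The library kit keeps strand and takes polyadenylated RNA. One group of 3 libraries came from cells given 100 µM stearic acid, a saturated fatty acid, for 24 h, and the other 3 from cells given the ethanol vehicle for the same time. The question was which transcripts differ after the fatty acid, in a series whose title concerns saturated fat and inflammasome activation.

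MHC class I molecules display peptides from the inside of a cell to CD8 T cells. Proteasomes cut proteins into peptides, the TAP transporter moves these into the endoplasmic reticulum, and tapasin (Tapbp) holds empty class I chains next to the transporter until a peptide binds. In immune cells and under interferon, Psmb8, Psmb9 and Psmb10 replace the catalytic subunits Psmb5, Psmb6 and Psmb7, and Nlrc5 works with the factors of the SXY promoter module (RFX, CREB/ATF and NF-Y) to drive class I genes.

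All 3 of the transcripts that changed fell: Psmb9 to 62.6% of its vehicle mean, Tap1 to 72.4% and Nlrc5 to 78.0%. The other 7 did not pass the test, and 6 of these had means below vehicle, between 86.6% (H2-K1) and 95.8% (Tap2), while H2-D1 was at 107%. The test was limma on log2(TPM + 1) over all 11551 genes that averaged 1 TPM or more, with p-values adjusted by Benjamini-Hochberg and called under 0.05. In that fit 24.7% of all tested genes were called, 11.9% lower and 12.8% higher, against 3 of 10 members lower. The count of members called higher was 0. At an unadjusted limma p under 0.05, 0 members were higher and 4 lower. The share of all tested genes lower at that threshold was not counted, but it is at least the 11.9% called lower after adjustment. The 4 are therefore not read as a result about the members. The median log2 fold change of the members was -0.17, beside -0.03 over all tested genes. All 3 stearic acid libraries lay below all 3 vehicle libraries in 5 members (B2m, Tap1, Psmb8, Psmb9 and Nlrc5), and this held for 21.7% of all tested genes. The count of members called lower depended on single libraries. It was 1 (Psmb9) when vehicle replicate 1, 2 or 3 or stearic acid replicate 3 was left out, 2 (Tap1 and Psmb9) when stearic acid replicate 2 was, and 6 when stearic acid replicate 1 was.

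**Figure D1:**
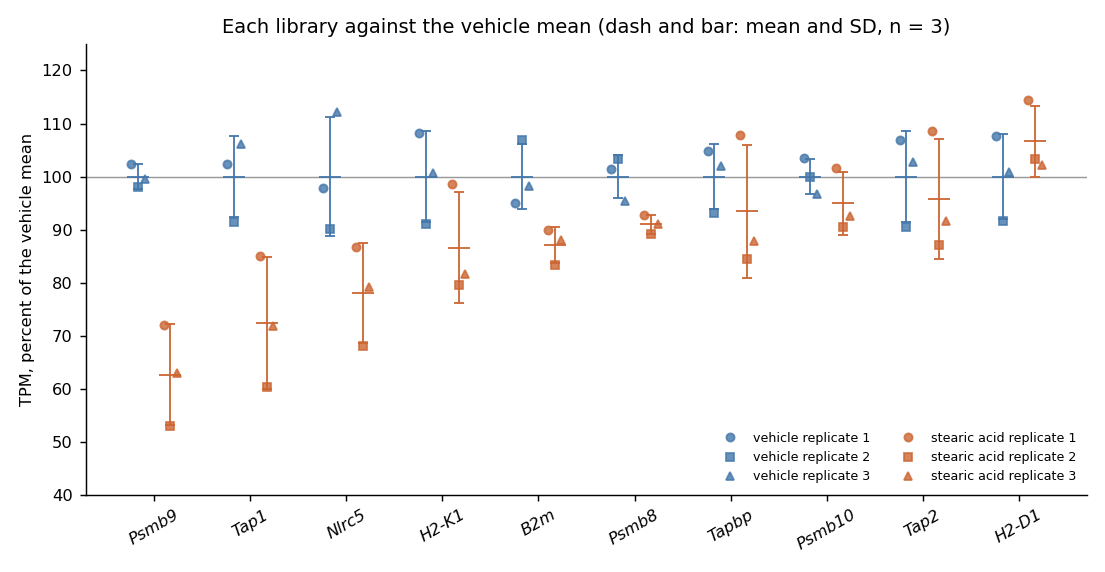
TPM of each member in each library as a percent of that gene's vehicle mean, on a linear axis that does not start at 0. Points are libraries, dashes and bars are mean and SD (n = 3 per group); Psmb9 has the lowest stearic acid mean (62.6%) and H2-D1 the highest (107%), and stearic acid replicate 1 is the uppermost orange point in all 10 genes.

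Among the stearic acid libraries, replicate 1 had the highest level of all 10 members, and replicate 2 had the lowest of 9. The median log2 difference from the vehicle mean over the members was -0.06 in replicate 1, -0.25 in replicate 2 and -0.18 in replicate 3. Libraries held 58100000 to 80800000 reads or read pairs, as worked out from steps in the RPKM values, and stearic acid replicate 1 held 64000000. All 8 macrophage markers checked were tested, and the best known, Lyz2, Csf1r, Cd68 and Adgre1, had means of 1030.4 TPM or more in both groups. Of the 8, 4 fell (Adgre1, Fcgr1, Lyz2 and Itgam) and Cd68 rose; all 5 calls were lost when vehicle replicate 2 or 3 was left out, and that of Lyz2 also under median-of-ratios or quantile scaling. Of markers of other cells, 7 of dendritic cells summed to 1.19 to 1.75 TPM in vehicle and 0.84 to 1.30 TPM in stearic acid libraries. The 8 lymphoid markers summed to 2.94 to 3.26 and 1.69 to 2.05 TPM, with Cd3e, Cd3d and Nkg7 at 0 in every library. The single one tested, the B cell receptor gene Cd79b, fell from 2.49 ± 0.206 to 1.27 ± 0.160 TPM (log2 fold change -0.62, limma adjusted p = 0.0055). The 7 markers of neutrophils and their progenitors summed to 2.42 to 4.72 and 6.34 to 7.18 TPM. The single one tested, S100a8, a neutrophil calcium-binding protein, rose from 3.33 ± 1.19 to 6.41 ± 0.467 TPM (log2 fold change 0.81, limma adjusted p = 0.016). Its call was lost when vehicle replicate 2 was left out and with no filter (limma adjusted p = 0.069 and 0.075). The part of these marker levels in the results was not tested. In bulk RNA, fewer cells of a type and less RNA per cell cannot be told apart.

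The promoter stretches of the 3 genes of the class I molecule itself and the stretch between Tap1 and Psmb9 are shown because they hold the letters through which this gene group is known to be controlled. Sequences are from RefSeq on GRCm38.p6, whose table of windows from 250 bases before to 50 after each start site held 8 of the 10 members. Capitals mark CCAAT, the Y box bound by NF-Y, which reads ATTGG on the other strand. They also mark the X2 site of CREB/ATF factors, TGACG, the interferon response core GAAANNGAA and the NF-kB consensus. Each was searched on both strands. The first 3 stretches run from 100 bases before TGACG to 10 bases after ATTGG, 5′ to 3′ on the strand of the gene.
H2-K1, chr17:34000349-34000488, minus strand: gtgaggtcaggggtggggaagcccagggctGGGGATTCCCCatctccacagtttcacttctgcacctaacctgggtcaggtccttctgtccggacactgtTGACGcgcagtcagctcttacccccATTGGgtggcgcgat
H2-D1, chr17:35262893-35263032, plus strand: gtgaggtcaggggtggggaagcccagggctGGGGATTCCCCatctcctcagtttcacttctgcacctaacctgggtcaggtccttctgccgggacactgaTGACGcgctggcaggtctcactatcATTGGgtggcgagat
B2m, chr2:122147509-122147648, plus strand: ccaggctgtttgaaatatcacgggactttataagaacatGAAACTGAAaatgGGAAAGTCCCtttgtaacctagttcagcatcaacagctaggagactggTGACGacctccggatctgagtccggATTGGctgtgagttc

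In all 3 stretches ATTGG starts 25 bases after TGACG starts. The windows counted were 32851 of 300 bases, without those of a chromosome that holds no member. Of these, 20.8% held TGACG and 37.4% held CCAAT on either strand, and 31 (0.0944%) held both in that order and spacing. A pair at a fixed spacing is a far narrower match than either motif alone. No other spacing was counted, so these shares do not show that this spacing is unusual. Read on the strand of the gene, the spacing occurred in windows of 16 genes, among them H2-K1, H2-D1, B2m and the class I gene H2-M3. The rest were BC051142, Ghitm, Gm33299, Hspa14, Ibsp, Nfe2l1, Per1, Slc8a3, Trim26, Ubn1, Xpnpep1 and Znrd1as. Because the spacing was taken from the H2-K1, H2-D1 and B2m stretches, their place among the 31 windows and the 16 genes was fixed in advance. The H2-K1 and H2-D1 stretches matched at 128 of 140 bases. Both held the NF-kB consensus (8.46% of the windows counted), and the B2m stretch held it beside GAAANNGAA (8.56% of the windows counted). The H2-K1 and H2-D1 stretches held no exact match to GAAANNGAA. Interferon response elements that differ from these letters were not searched, so their absence from H2-K1 and H2-D1 is not shown.

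Tap1 and Psmb9 are transcribed in opposite directions from start sites 226 bases apart, and their 2 windows share 275 bases. The bases between the start sites are given on the plus strand, the strand of Tap1.
Tap1 to Psmb9, chr17:34187331-34187555: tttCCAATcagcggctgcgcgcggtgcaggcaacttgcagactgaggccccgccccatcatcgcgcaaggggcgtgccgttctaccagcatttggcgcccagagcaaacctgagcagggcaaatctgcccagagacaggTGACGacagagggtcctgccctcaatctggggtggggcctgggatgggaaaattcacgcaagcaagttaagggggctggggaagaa

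This stretch held one CCAAT and one TGACG, and neither the interferon response core nor the NF-kB consensus as searched. In the windows of the other members, Tapbp held CCAAT at 2 positions, and Psmb10 held none of these 4 motifs. These matches describe letters in a window and do not show that a factor binds there.

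The heavy chains and the light chain were by far the most abundant members. B2m encodes beta-2 microglobulin, the light chain of every class I molecule (gene 12010, chromosome 2, 122147687 to 122153082). Its level was 6499, 7308 and 6716 TPM in vehicle replicates 1, 2 and 3 and 6151, 5694 and 6025 TPM in stearic acid replicates 1, 2 and 3. The groups did not overlap, and the means were 6841 ± 419 and 5957 ± 236 TPM (SD, n = 3). The difference did not pass (log2 fold change -0.20, SE 0.07, limma adjusted p = 0.068), and without stearic acid replicate 1 it did (limma adjusted p = 0.035).

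H2-K1 encodes the K heavy chain (gene 14972, chromosome 17, 33996012 to 34000619). It stood at 1682, 1415 and 1565 TPM in vehicle replicates 1 to 3, and at 1532, 1237 and 1267 TPM in stearic acid replicates 1 to 3. Stearic acid replicate 1 fell inside the vehicle range and the other 2 fell below it. The means were 1554 ± 134 and 1346 ± 162 TPM (log2 fold change -0.21, SE 0.10, limma adjusted p = 0.14), and without stearic acid replicate 1 the difference passed (limma adjusted p = 0.007).

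H2-D1 encodes the D heavy chain (gene 14964, chromosome 17, 35263094 to 35267497). It was at 3349.9, 2849.6 and 3136 TPM in vehicle and at 3559.7, 3214 and 3181 TPM with stearic acid, so the groups overlapped. The means were 3112 ± 251 and 3318 ± 209.9 TPM (log2 fold change 0.09, 95% interval -0.09 to 0.28, limma adjusted p = 0.41). H2-D1 was the single member whose mean was higher with stearic acid.

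The ratio of the heavy chains, H2-K1 to H2-D1, was compared after these values had been seen. It was 0.502, 0.497 and 0.499 in the vehicle libraries and 0.430, 0.385 and 0.398 in the stearic acid libraries. The groups did not overlap, and the vehicle libraries differed among themselves far less than either gene did alone. The mean ratio was 0.499 ± 0.00279 against 0.405 ± 0.0233, a log2 difference of -0.30 (two-sided exact permutation p = 0.1, the smallest that 3 against 3 libraries allow). The genes are similar in sequence: of the 50-base words in the H2-K1 transcripts of GENCODE M21, 5.43% also occur in H2-D1, and 6.87% in any other gene. For H2-D1, 13.9% of words occur in another gene. How such reads were assigned is not given in the sources used here. H2-K1 and H2-D1 together summed to 4666 ± 385 TPM in vehicle and 4664 ± 371 TPM with stearic acid, and with B2m they made up 1.15% and 1.06% of the transcripts.

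**Figure D2:**
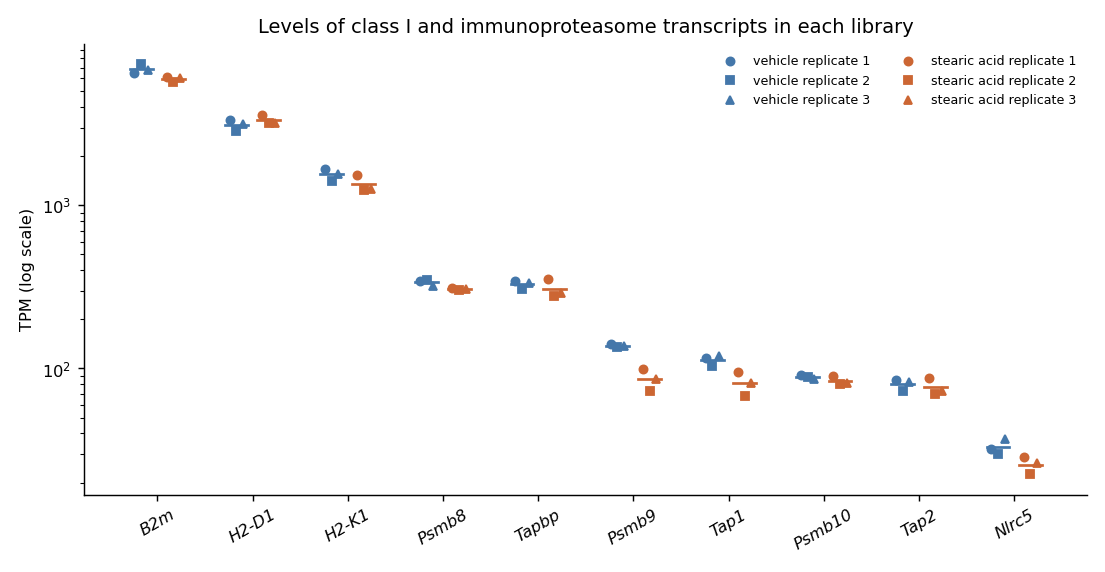
TPM of the 10 members in each library on a log axis, ordered by vehicle mean, with a line at each group's mean (n = 3). B2m, H2-D1 and H2-K1 stand at 1237 TPM or more in every library, and Psmb9 and Tap1 move down into the range of Psmb10 and Tap2 with stearic acid.

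Of the subunits that form the peptide transporter, Tap1 fell and Tap2 did not pass the test. Tap1 (gene 21354, chromosome 17, 34187556 to 34197225) was at 115, 103 and 119.6 TPM in vehicle replicates 1 to 3 and at 95.8, 67.9 and 81.0 TPM in stearic acid replicates 1 to 3. Every stearic acid library was below every vehicle library. Tap1 fell from 113 ± 8.63 to 81.6 ± 14.0 TPM (log2 fold change -0.47, SE 0.12, limma adjusted p = 0.024). The call was lost without any 1 vehicle library, without stearic acid replicate 3 and with no filter on low values (limma adjusted p = 0.065 to 0.10).

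Tap2 (gene 21355, chromosome 17, 34204479 to 34216321) was at 85.5, 72.3 and 82.2 TPM in vehicle and at 86.8, 69.7 and 73.3 TPM with stearic acid. These ranges overlapped almost fully, and the highest and the lowest value were both in stearic acid libraries. The log2 fold change was -0.06 (95% interval -0.29 to 0.16, limma adjusted p = 0.65). The ratio of Tap1 to Tap2, compared after the values had been seen, was 1.35, 1.42 and 1.46 in vehicle and 1.10, 0.974 and 1.11 with stearic acid. It did not overlap between the groups (log2 difference -0.41, two-sided exact permutation p = 0.1, the smallest possible).

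Tapbp, which encodes tapasin (gene 21356, chromosome 17, 33919478 to 33929290), was at 346, 307 and 337 TPM in vehicle and at 356, 279 and 289.9 TPM with stearic acid. Stearic acid replicate 1 was the highest of all 6 libraries, and replicates 2 and 3 were below the vehicle range. The difference did not pass (log2 fold change -0.10, 95% interval -0.33 to 0.12, limma adjusted p = 0.45), and without stearic acid replicate 1 it did (limma adjusted p = 0.036).

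Of the 3 immunoproteasome subunits, Psmb9 fell and the other two did not pass. Psmb9 encodes beta1i, which takes the place of Psmb6 (gene 16912, chromosome 17, 34182030 to 34187330). Its level was 141, 135 and 137 TPM in vehicle replicates 1 to 3 and 99.0, 72.7 and 86.4 TPM in stearic acid replicates 1 to 3. The vehicle libraries lay within a few percent of each other and every stearic acid library was well below them. Psmb9 fell from 137 ± 3.14 to 86.0 ± 13.1 TPM (log2 fold change -0.68, SE 0.10, limma adjusted p = 0.0045). It passed in all 15 alternative fits (limma adjusted p up to 0.043).

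Psmb8 encodes beta5i, which takes the place of Psmb5 (gene 16913, chromosome 17, 34198195 to 34201454). It was at 342, 349 and 322 TPM in vehicle and at 313, 301 and 307 TPM with stearic acid, with no overlap and a small distance between the groups. The difference did not pass (log2 fold change -0.14, 95% interval -0.28 to 0.00, limma adjusted p = 0.13). Psmb10 encodes beta2i, which takes the place of Psmb7 (gene 19171, chromosome 8, 105935728 to 105938392). It was at 91.6, 88.4 and 85.7 TPM in vehicle and at 90.1, 80.2 and 82.0 TPM with stearic acid, and the groups overlapped (log2 fold change -0.08, 95% interval -0.23 to 0.08, limma adjusted p = 0.45). The ratio of Psmb9 to Psmb8, compared after the values had been seen, was 0.412, 0.386 and 0.425 in vehicle and 0.316, 0.242 and 0.281 with stearic acid. It did not overlap between the groups (log2 difference -0.55, two-sided exact permutation p = 0.1).

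Nlrc5, the NOD-like receptor that activates class I promoters (gene 434341, chromosome 8, 94434335 to 94527272), was the least abundant member. It was at 32.3, 29.8 and 37.1 TPM in vehicle replicates 1 to 3 and at 28.6, 22.5 and 26.2 TPM in stearic acid replicates 1 to 3. The highest stearic acid library was close below the lowest vehicle library. Nlrc5 fell from 33.0 ± 3.70 to 25.8 ± 3.10 TPM (log2 fold change -0.35, SE 0.11, limma adjusted p = 0.047). The call was lost without any 1 vehicle library, without stearic acid replicate 2 or 3, with no filter on low values and with no intensity trend in the prior (limma adjusted p = 0.054 to 0.16).

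**Figure D3:**
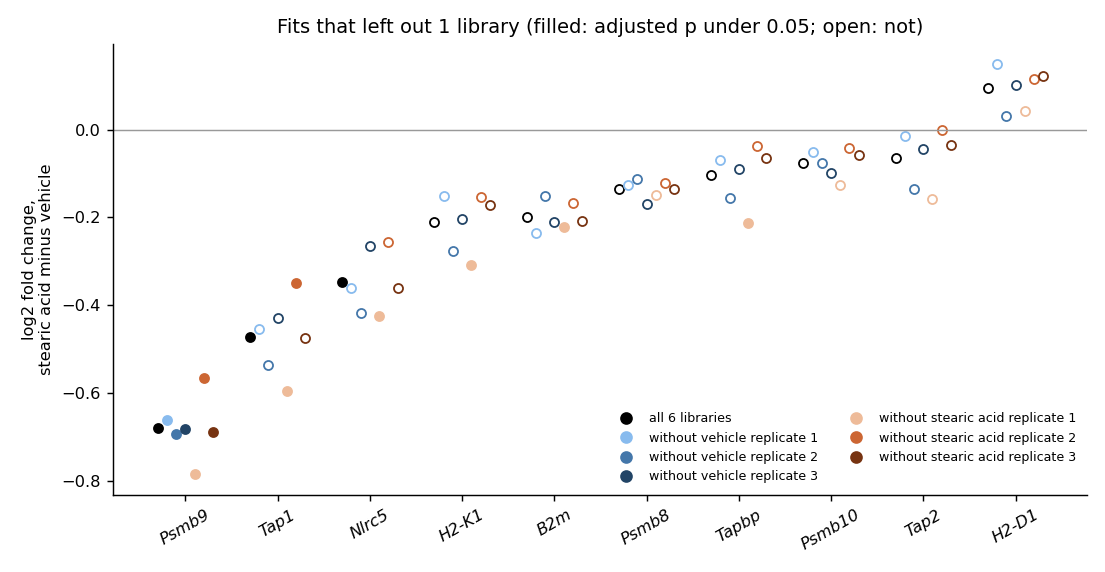
The log2 fold change (stearic acid minus vehicle) of each member with all 6 libraries and in each fit that left out 1 library; filled points passed at an adjusted p under 0.05. Psmb9 is filled in all 7 fits, Tap1 in 3, Nlrc5 in 2, and H2-K1, B2m and Tapbp in 1, the fit without stearic acid replicate 1. That fit called 5010 of the 11551 tested genes.

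In vehicle the levels ran in the order B2m, H2-D1, H2-K1, Psmb8, Tapbp, Psmb9, Tap1, Psmb10, Tap2 and Nlrc5, and Psmb8 and Tapbp were the neighbours whose libraries overlapped. With stearic acid Psmb8 and Tapbp again overlapped, and Psmb9 (86.0 TPM), Psmb10 (84.1 TPM), Tap1 (81.6 TPM) and Tap2 (76.6 TPM) overlapped as well. Psmb9, Tap1, Psmb8 and Tap2 lie in that order between 34182030 and 34216321 on chromosome 17. The neighbours Psmb9 and Tap1 had the lowest stearic acid levels relative to vehicle of the 10 members, and Psmb8 and Tap2 were at 91.0% and 95.8%. The 50-base words of B2m, Psmb8, Psmb9, Psmb10 and Nlrc5 transcripts occurred in no other gene's transcripts, and those of Tap1, Tap2 and Tapbp did in 0.83%, 0.71% and 3.50%.

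Of the 3 constitutive subunits that compete for the same places in the proteasome, 2 rose and 1 did not pass (median log2 fold change 0.38). Psmb6 rose from 273 ± 15.6 to 355 ± 30.2 TPM (log2 fold change 0.38, SE 0.08, limma adjusted p = 0.014). Psmb5 rose from 243 ± 22.4 to 338 ± 50.7 TPM (log2 fold change 0.47, SE 0.11, limma adjusted p = 0.021). Of the 50-base words of Psmb5, 54.1% occur in other genes, 46.8% in Gm3375, a name for which no level was given. Psmb7 did not pass (log2 fold change 0.07, limma adjusted p = 0.59). Both rises missed the threshold with no filter and when the second or the third vehicle library, or the third stearic acid library, was left out, and that of Psmb5 also when vehicle replicate 1 was left out; the highest limma adjusted p among these was 0.093.

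The ratio of Psmb9 to Psmb6 was 0.508, 0.471 and 0.536 in the vehicle libraries and 0.306, 0.189 and 0.241 in the stearic acid libraries. Its groups did not overlap (log2 difference -1.07). The ratio of Psmb8 to Psmb5 was 1.39, 1.32 and 1.46 in vehicle and 1.08, 0.771 and 0.916 with stearic acid. Psmb8 was the more abundant of this pair in every vehicle library and the less abundant in stearic acid replicates 2 and 3 (log2 difference -0.61). For Psmb10 to Psmb7 the ratio was 0.387, 0.324 and 0.360 in vehicle and 0.382, 0.284 and 0.308 with stearic acid, and the groups overlapped (log2 difference -0.14, two-sided exact permutation p = 0.4). The ratios for Psmb9 and Psmb8 each gave a two-sided exact permutation p of 0.1, the smallest possible, and 0.15 adjusted over these 3 ratios. Over all 6 ratios compared, the 5 that did not overlap had an adjusted exact permutation p of 0.12. Because 3 of the 6 were picked after the values were seen, that lower value is no added evidence.

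**Figure D4:**
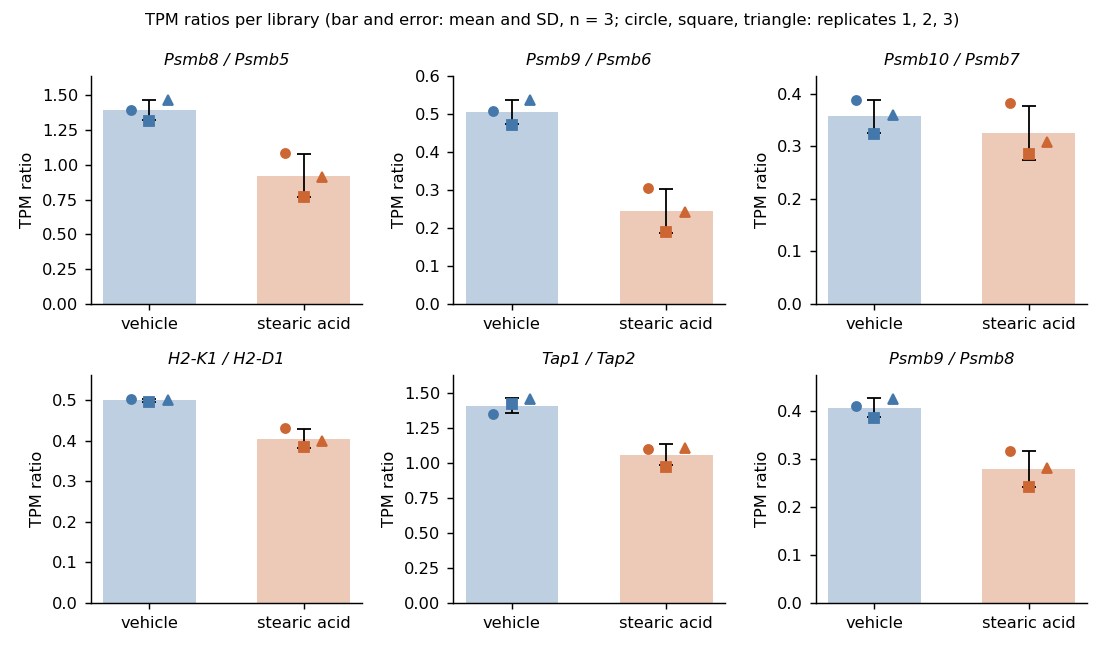
TPM ratios in each library, with bars at the mean and error bars of 1 SD (n = 3); each vertical axis starts at 0. The upper row sets immunoproteasome subunits over the constitutive subunits they replace and the lower row sets pairs of members against each other; the groups overlap for Psmb10 over Psmb7 alone.

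Other genes of the pathway were counted from lists chosen by function. Of 21 other class I and class I-like heavy chains, 14 were in the tables and 10 were tested; 3 fell and 7 did not pass (median log2 fold change -0.27). The 3 were H2-M3, which presents formylated peptides, from 83.3 ± 3.48 to 63.1 ± 7.08 TPM (log2 fold change -0.40, limma adjusted p = 0.016), H2-T22 (log2 fold change -0.43) and H2-T24 (log2 fold change -0.59). In the H2-T22 transcripts 43.9% of 50-base words occur in other genes, 37.6% in H2-T10. All 3 calls were lost without any 1 vehicle library, without stearic acid replicate 3 and with no filter (limma adjusted p = 0.056 to 0.089).

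Among 9 partners of peptide loading and trimming 1 rose, calreticulin (Calr), from 1249 ± 23.7 to 1473 ± 126 TPM (log2 fold change 0.24, limma adjusted p = 0.048), and 8 did not pass (median log2 fold change -0.01). Calr holds the heavy chain during loading and is also a general endoplasmic reticulum chaperone. Its call was lost in 10 of 15 alternatives, among them each left-out library other than stearic acid replicate 1 (highest limma adjusted p 0.16). Erap1, which trims peptides in the endoplasmic reticulum, was at 52.2 and 51.9 TPM (limma adjusted p = 0.93).

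Of 9 proteasome activator and assembly genes 1 rose, Psme3, which encodes the nuclear activator PA28 gamma (log2 fold change 0.37, limma adjusted p = 0.020), and 8 did not pass (median of the 9, 0.07). The interferon-inducible activator subunits Psme1 (log2 fold change -0.22, limma adjusted p = 0.052) and Psme2 (log2 fold change -0.05, limma adjusted p = 0.58) were among these. Of 6 cytosolic peptidases, Thop1 rose (log2 fold change 0.33) and Blmh fell (log2 fold change -0.27), and 4 did not pass (median of the 6, 0.09). Leaving out any 1 vehicle library, or the third stearic acid library, ended the calls of Psme3, Thop1 and Blmh (highest limma adjusted p 0.087).

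Of the 8 DNA-binding partners of Nlrc5, Atf1 rose (log2 fold change 0.24, limma adjusted p = 0.048) and 7 did not pass, with a median log2 fold change of -0.07. Rfx5, the RFX subunit that binds the X box, was at 13.3 ± 2.06 TPM in vehicle and 8.95 ± 2.41 TPM with stearic acid (log2 fold change -0.54, limma adjusted p = 0.052). The call of Atf1 was lost in 7 of 15 alternatives, among them each left-out library other than stearic acid replicate 1 (highest limma adjusted p 0.19).

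Of 15 genes of interferon signalling, 6 fell and 9 did not pass (median log2 fold change -0.22). Usp18, an interferon-induced brake on the receptor, fell from 63.5 ± 2.53 to 43.0 ± 3.14 TPM (log2 fold change -0.55, SE 0.08, limma adjusted p = 0.0029) and passed in all 15 alternatives. Stat2, which carries the type I interferon signal to the nucleus, fell from 91.0 ± 4.38 to 63.9 ± 10.1 TPM (log2 fold change -0.51, limma adjusted p = 0.014). Its call was lost without vehicle replicate 2 or 3 and with no filter (limma adjusted p up to 0.072). That interferon-response genes are lower in these libraries was known when the list was made, so its count is not independent evidence of a direction.

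**Figure D5:**
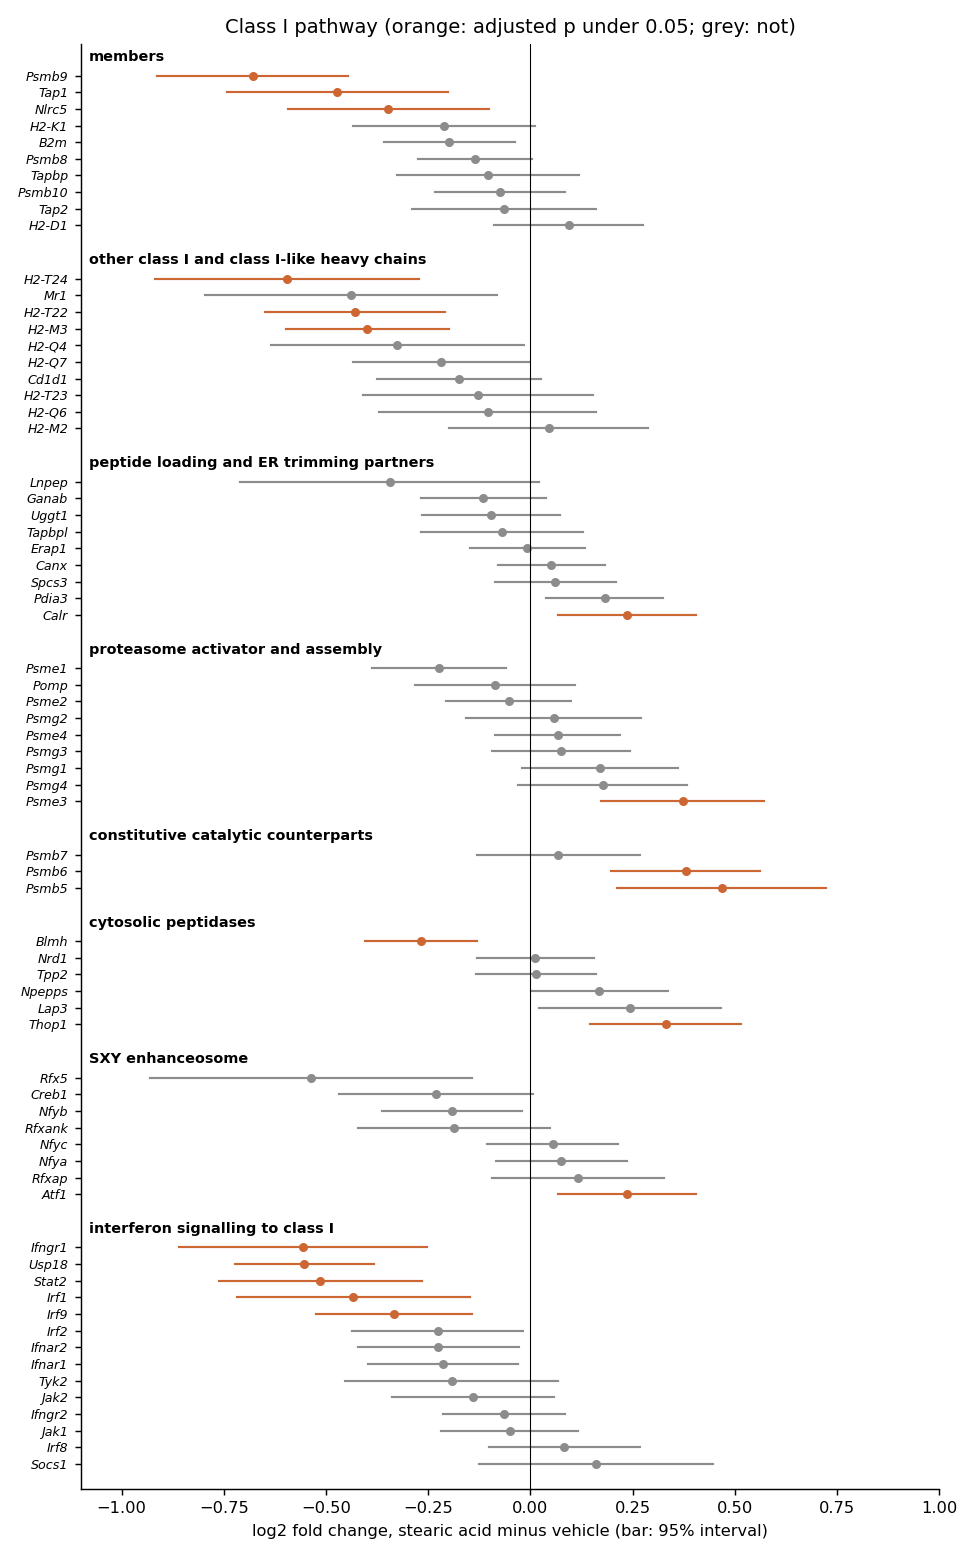
The log2 fold change (stearic acid minus vehicle) of each tested member and listed pathway gene with its unadjusted 95% interval from limma; orange genes passed at an adjusted p under 0.05. Orange points among the members (3), the other heavy chains (3) and interferon signalling (5 drawn) all lie below 0, and both orange constitutive subunits lie above 0.

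The 5 genes nearest to the members' median profile were taken from 9490 genes in no list that averaged 5 TPM or more. Nearness was the root mean square distance over the 6 libraries of log2(TPM + 1) minus the vehicle mean. They were Slc35b2 (distance 0.016), Recql4 (0.021), Ankrd13a (0.022), Uck1 (0.022) and Lrrc49 (0.025). H2-K1 was the member nearest to that profile (0.065), and 672 of the 9490 genes were nearer than it. Psmb9 was the farthest (0.37), with 8254 genes nearer. The profile was therefore not particular to the members. None of the 5 nearest genes passed the test.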

How the data were processed

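Polyadenylated RNA of 6 mouse macrophage libraries, 3 per group, was analysed. Per the file headers, the authors deposited a TPM and an RPKM value per gene and library. The submitters' processing notes name DRAGEN and the builds GRCm38 and mm10 (the same assembly); the sources used here do not give the annotation, the counting rule or whether strand was used. The labels do not say whether replicates were separate cultures or animals, so the p-values here rest on a spread among libraries that could be purely technical.

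Coordinates came from RefSeq (GRCm38.p6) by gene number (97.3% of 36333 matched). Depth came from the steps of RPKM x length in single-exon genes; 71.8% to 76.9% of the values used were whole within 0.02, so no counts were rebuilt. limma 3.58.1 (R 4.3.3, intensity trend) was run on log2(TPM + 1) over the 11551 genes averaging 1 TPM or more; fold changes on that scale understate changes of low genes, and TPM is relative to all other transcripts. Ratios were tested by exact permutation over 20 assignments.

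Alternatives were pseudocounts of 0.1 and 5, no filter, a 5 TPM minimum, RPKM, median-of-ratios and quantile scaling, no intensity trend, a replicate block and each library left out. Named were all members, the constitutive subunits, the called genes of each list (the 3 of smallest p where over 5 were called) and the 5 nearest profiles. One gene of the interferon list, which is counted, and one motif are not reported here. Csf1r, Erap1, Psme1, Psme2 and Rfx5 were named after their values were seen, as were 3 of the ratios. Members and lists were chosen with earlier results of these data known.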

Additional observations from a re-analysis of the deposited data

How the results depend on the processing

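The number of genes called, 2856 over the whole table, was 1027 with no filter on low values and ranged from 550 to 5010 when 1 library was left out. The number of members called lower, 3, was 1 with no filter and ranged from 1 to 6 when 1 library was left out. It was 3 under both other pseudocounts, the 5 TPM filter, RPKM, median-of-ratios scaling, quantile scaling and the replicate block, with Tap1, Psmb9 and Nlrc5 called in each of these, and 2 with no intensity trend. No member was called higher in any of the 15 alternatives. The same-numbered libraries deviated from their group means with correlations of 0.07, 0.29 and 0.04 across genes, so the numbers were not taken as pairs. With the replicate block 3638 genes were called, and adjusted p was 0.00094 for Psmb9, 0.0037 for Tap1 and 0.014 for Nlrc5; vehicle replicate 3 correlated best with another number. The ratios of Psmb8 to Psmb5 and Psmb9 to Psmb6 have the same log2 differences with the block by construction (-0.61 and -1.07, sign-flip exact permutation p = 0.25, the smallest that 3 pairs allow). They ranged from -0.73 to -0.48 and from -1.24 to -0.89 when 1 library was left out. With 3 libraries per group, small differences such as that of Psmb8 could not be told from the spread.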
